A study of Mus musculus with 5 samples.

Results

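Jun, Junb, Jund, Fos, Fosb, Egr1, Nr4a1, Atf3, Ier2 and Dusp1 are 10 genes of the AP-1 family and the immediate early response, and they were followed here in the retina of diabetic and control mice. They were taken by symbol from a whole-genome array, where 12 of 45101 probe sets carried their names, which gave 10 of 18193 genes. Where a gene had several, its probe set was chosen by the highest mean level over all 5 arrays, and a low level of Jun in diabetic pools was already known when the genes were picked, so the values below describe Jun and do not test it. The arrays held total RNA from 3 diabetic and 2 control pools of retinas. Diabetic replicates 1 and 2 were each made from 4 retinas of 2 mice, 5 weeks after diabetes was induced with streptozotocin, which kills the beta cells of the pancreas. Diabetic replicate 3 came from 3 mice (6 retinas) that had been diabetic for 3 to 4 weeks, and its label names no inducing agent. Each control replicate was made from 4 retinas of 2 age-matched mice that were untreated and had normal blood glucose. The labels give no strain, sex, age or vehicle treatment. Each value is that of a pool, so spread between single mice was not measured, and a diabetic retina with fewer cells of a type cannot be told apart from one with less RNA per cell.

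AP-1 is a transcription factor made of paired proteins of the Jun, Fos and ATF families, which hold each other through a leucine zipper and bind DNA through a basic region. Immediate early genes are transcribed within minutes of a stimulus from factors already present in the cell, and many of their products are transcription factors or feedback inhibitors of the signal. In the retina, Fos and Egr1 are known to respond to light and synaptic activity, and Jun is known for its phosphorylation by JNK kinases in injured ganglion cells.

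Levels are given as log2(signal + 120.6), where the signal is the deposited array intensity and 120.6 is the 20th percentile of all values. A difference on this scale understates the change of a dim gene. Levels of different genes come from different probes, so a level is read only between arrays and not between genes. The label retina was checked with 9 measured rod genes, which had a summed log2 signal of 19.27 to 19.45 in the 5 arrays, and 0 of 8 lens genes lay above the filter on dim genes. Skeletal muscle genes set diabetic replicate 3 and control replicate 2 apart. All 13 measured muscle genes were higher in both of them than in the other 3 arrays, with a summed log2 signal of 16.54 and 15.92 against 12.66 to 12.84. Diabetic replicate 2 had a ratio of 3' to 5' beta-actin signal of 4.32, against 2.01 to 2.71 in the other arrays, a measure of RNA integrity. Differences of members that were highest in these arrays are given with and without them.

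Diabetic pools had less Jun signal than control pools, while 8 of the other 9 genes differed by 0.22 or less in size on the log2 scale. Jun encodes c-Jun, a principal partner in AP-1 dimers. Its array signal was 7145, 7280 and 7034 in diabetic replicates 1 to 3, and 10283 and 15686 in control replicates 1 and 2. The 3 diabetic pools lay close together, the controls lay far from each other, and the groups did not overlap. On the log2 scale the diabetic mean of Jun was 12.83 ± 0.02 (SD, n = 3) and the control mean 13.65 ± 0.43 (SD, n = 2). The difference was -0.82 (SE 0.16), or 0.567 of the control level. Control replicate 2 carried much of its size. Without that array the difference was -0.52, and without control replicate 1 it was -1.12. Within the arrays of high muscle signal, diabetic replicate 3 minus control replicate 2, Jun differed by -1.14. Within the other 3, where diabetic replicates 1 and 2 were averaged and set against control replicate 1, it differed by -0.50.

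The other probe set of Jun, also designed on its RefSeq transcript, had signals of 2180, 2668 and 2136 in diabetic and 2822 and 3524 in control pools. Its groups did not overlap either, although diabetic replicate 2 and control replicate 1 lay close. The log2 difference was -0.43, smaller than the -0.82 of the main probe set. With the arrays centred on their medians it was -0.38 and the groups overlapped, while the main probe set was at -0.78 with no overlap.

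**Figure D1:**
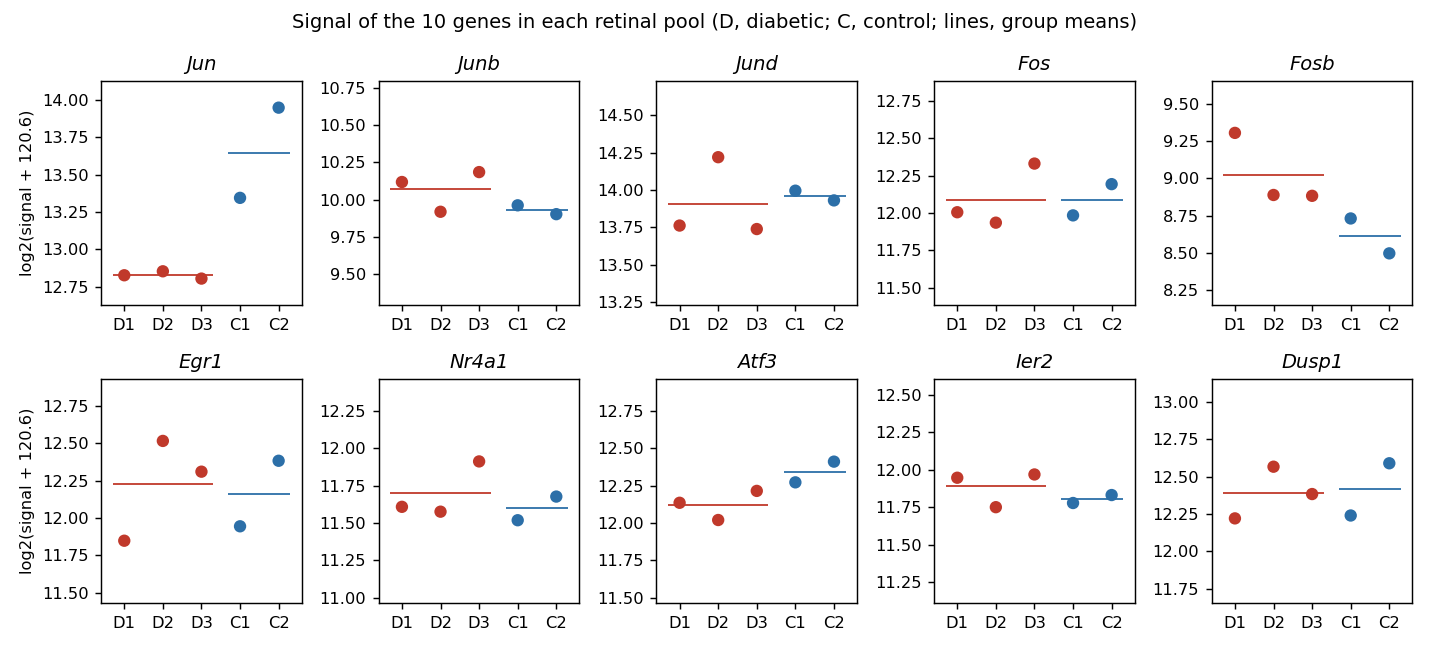
Level of each of the 10 genes, as log2(signal + 120.6) on the vertical axis, in diabetic (D1 to D3, red) and control (C1 and C2, blue) pools, with group means as lines; each panel spans the same number of log2 units around its own centre. The diabetic points of Jun lie together at 12.80 to 12.85, below controls at 13.34 and 13.95, whereas the groups overlap in 7 of the 10 panels.

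Atf3 was the other gene with every diabetic pool below both controls. It encodes an ATF family protein induced by stress and injury that pairs with Jun proteins. Its level was 12.14, 12.02 and 12.21 in diabetic replicates 1 to 3 and 12.27 and 12.41 in the controls. The highest diabetic pool and the lower control were only a little apart, and the difference was -0.22 (SE 0.11, 95% interval -0.46 to 0.03). With single arrays left out it lay between -0.29 (control replicate 1 left out) and -0.15 (control replicate 2 left out).

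The stretches just before the start of both genes are shown because these were the members that were lower without overlap, beside those of Fos and Dusp1, whose groups overlapped. Each has 150 bases, 5′ to 3′ on the gene's strand, from the RefSeq promoters of assembly GRCm38.p6. The Jun stretch is chr4:95052223-95052372 on the minus strand, that of Atf3 chr1:191183334-191183483 on the minus strand, that of Fos chr12:85473740-85473889 on the plus strand and that of Dusp1 chr17:26508473-26508622 on the minus strand. Capitals mark matches to the motifs searched.
Jun: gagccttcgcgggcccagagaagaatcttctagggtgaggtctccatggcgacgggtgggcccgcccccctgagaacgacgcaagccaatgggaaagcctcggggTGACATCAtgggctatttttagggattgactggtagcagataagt
Atf3: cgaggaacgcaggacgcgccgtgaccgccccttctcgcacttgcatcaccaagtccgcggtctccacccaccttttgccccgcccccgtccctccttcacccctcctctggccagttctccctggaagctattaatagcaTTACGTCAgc
Fos: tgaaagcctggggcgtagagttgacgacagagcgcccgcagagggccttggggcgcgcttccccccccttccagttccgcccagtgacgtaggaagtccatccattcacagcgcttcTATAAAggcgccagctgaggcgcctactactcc
Dusp1: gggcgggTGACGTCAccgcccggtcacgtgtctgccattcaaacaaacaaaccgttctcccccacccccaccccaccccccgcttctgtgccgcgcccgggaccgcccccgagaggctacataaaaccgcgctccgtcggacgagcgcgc

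Motifs were searched on both strands in the 250 bases before each start, over 32851 promoters. Of the 10 genes 8 had an entry, all but Egr1 and Ier2. The letters TGACATCA, an AP-1-like element known from the Jun promoter as a binding site of Jun and ATF2, were found before Jun, at bases -45 to -38, and in 2.93% of all promoters. TTACGTCA, an ATF-type element, was found before Atf3, at -10 to -3, and in 0.447% of all promoters. TGACGTCA, the cAMP response element, was found before Dusp1, at -143 to -136, and in 1.55% of all promoters. TGANTCA, with any base at N, is wider than the AP-1 site it takes in. It was found before 0 of the 8 genes and in 6.75% of all promoters. The CArG box of the serum response factor was found before 0 of the 8 and in 1.47% of all promoters. TATAAA was found before Fos, at -33 to -28, and in 12.4% of all promoters. None of these 6 motifs overlapped another in the stretches shown. A match describes letters in this window and shows no binding, and a missing match says nothing about sites outside the window.

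In the other Jun family genes the groups overlapped. Those of Junb came apart, with diabetic pools higher, after quantile normalization or median centring and without diabetic replicate 2 or control replicate 1. Without these arrays the groups of 36.2% and 44.8% of all tested genes did not overlap. Junb, which encodes a Jun protein of weaker activity on many AP-1 sites, was at 10.12, 9.92 and 10.18 in diabetic and 9.96 and 9.90 in control pools. Diabetic replicate 2 lay between the controls, and the difference was 0.14 (95% interval -0.27 to 0.55). Without diabetic replicate 3, where Junb was highest, the difference was 0.09. Junb lay just inside the filter on dim genes, with a mean of 10.02 against a limit of 9.70. Jund, which encodes the Jun protein that is present without stimulation, was at 13.76, 14.22 and 13.74 in diabetic and 13.996 and 13.93 in control pools. Its highest value was in diabetic replicate 2, the array of high beta-actin ratio, and the difference was -0.06 (95% interval -0.38 to 0.27). Without that array Jund differed by -0.21 and its groups did not overlap, as in 36.2% of all tested genes, and the part of RNA integrity in it was not tested. A dim probe set of Jund, with signals of 28.7 to 319.2, differed by 0.06 with overlapping groups.

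Of the Fos family, Fos itself had nearly equal group means. It was at 12.01, 11.94 and 12.33 in diabetic and 11.98 and 12.19 in control pools, with a difference of 0.00174 (95% interval -0.32 to 0.33). Its 2 highest values were in diabetic replicate 3 and control replicate 2, the arrays of high muscle signal, and without both the difference was -0.01. Fosb, another gene of the family, was at 9.30, 8.89 and 8.88 in diabetic and 8.73 and 8.50 in control pools. All diabetic pools were above both controls, by 0.41 in the mean. This gene was dim, with signals of 241.0 to 511.6, and its mean of 8.86 lay below the filter, so it was not tested. In a fit without the filter the 95% interval was -0.24 to 1.06. The Fosb difference was 0.27 without diabetic replicate 1, which had the highest value.

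Egr1, a zinc finger factor induced by light and growth signals, varied more within the groups than between them. It was at 11.85, 12.52 and 12.31 in diabetic and 11.95 and 12.38 in control pools, low in replicate 1 of either group. The difference was 0.06 (95% interval -0.40 to 0.53), and with single arrays left out it ran from -0.16 to 0.28. Without diabetic replicate 2, where Egr1 was highest, it was -0.08. Nr4a1, an orphan nuclear receptor of the immediate early response, was at 11.61, 11.58 and 11.91 in diabetic and 11.52 and 11.68 in control pools. As with Fos, its 2 highest values were in the arrays of high muscle signal, and these were the 2 of 10 members with that pattern. The part of muscle tissue in it was not tested. The difference of Nr4a1 was 0.10 (95% interval -0.21 to 0.42), and with single arrays left out it ran from -0.00571 (diabetic replicate 3 left out) to 0.18 (control replicate 2 left out). Leaving out both muscle-rich arrays gave 0.07. In the last 2 of these fits the diabetic pools were all higher, with no overlap, as the groups of 42% and 57.7% of all tested genes then had none.

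Ier2, a small nuclear protein gene of the same response, was the least variable of the 10, with an SD over all 5 arrays of 0.10 against 0.50 for Jun. Its levels were 11.95, 11.75 and 11.97 in diabetic and 11.78 and 11.83 in control pools, a difference of 0.08 (95% interval -0.18 to 0.35), with overlapping groups. They came apart, with diabetic pools higher, after median centring and without diabetic replicate 2. Without diabetic replicate 3, where Ier2 was highest, the difference was 0.04. Dusp1 encodes a phosphatase that switches off MAP kinases and so ends the signal that induces it. It was at 12.22, 12.57 and 12.38 in diabetic and 12.24 and 12.59 in control pools. Like Egr1, Dusp1 was lowest in replicate 1 of either group. The difference was -0.02 (95% interval -0.35 to 0.30), from -0.20 without control replicate 1 to 0.15 without control replicate 2. Without control replicate 1 the diabetic pools of Dusp1 were all lower, and 44.8% of all tested genes then had no overlap.

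**Figure D2:**
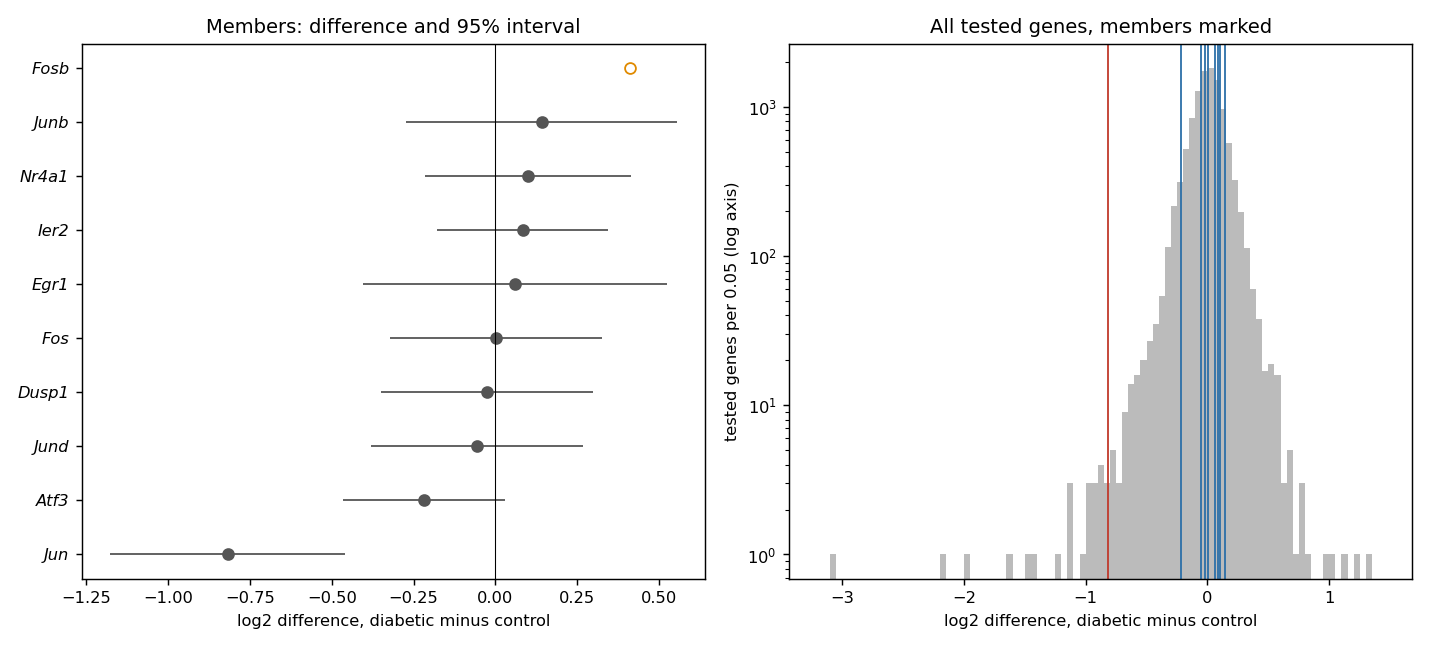
Left, log2 difference (diabetic minus control) of each gene with its 95% interval from the fit over all genes, with Fosb as an open point since it was not tested. Right, the same difference for 10916 tested genes on a log count axis, with Jun as a red line at -0.82 and the 8 other tested members as blue lines between -0.22 and 0.14.

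The members were then read against the whole array. The groups did not overlap in 3 of the 10 members, or 2 of the 9 tested (Jun and Atf3 lower, and the untested Fosb higher), against 18.1% of all 10916 tested genes, 8.15% lower and 9.99% higher. Nothing is read from this count for Jun, whose difference was known. Of the 10 genes 4 were lower and 6 higher, with a median difference of 0.03. The median over all tested genes was 0.00602, and 48.1% of them were lower. With the arrays centred on their medians 34.2% of all genes and 3 of the 10 members were lower. A difference of -0.5 or below was seen in 0.834% of tested genes, and Jun was the member among them. There were 24 tested genes with a difference at or below that of Jun, Jun included. In limma 0 of 10916 genes passed a Benjamini-Hochberg adjusted p of 0.05 (0%), so no member did. Before adjustment 370 genes had a p under 0.05 (3.39%), and 1 of them was a member, Jun. For Jun this is no test, since its difference was known when the genes were picked.

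To ask whether Jun stood apart, its level minus the median level of the other 9 genes was taken in each array. The size of this distance depends on the probes. So in part does its change between arrays, since the middle gene of the 9 was not the same throughout. It was Ier2 in diabetic replicate 1, Atf3 in diabetic replicate 3, Egr1 in control replicate 1 and Fos in the other arrays. With each gene first centred on its own mean, the median of the 9 was -0.08, -0.08 and 0.11 in diabetic pools. In the controls it was -0.11 and 0.02. The uncentred distance was 0.88, 0.92 and 0.59 log2 units in diabetic replicates 1 to 3 and 1.40 and 1.75 in the controls. The groups did not overlap, and the mean was 0.80 ± 0.18 (SD, n = 3) against 1.58 ± 0.25 (SD, n = 2), a difference of -0.78. That is close to the -0.82 of Jun alone, and the median of the other genes ranged from 11.94 to 12.22 in diabetic and from 11.95 to 12.19 in control pools. Without both arrays of high muscle signal the difference of the distance was -0.50. These values restate the difference by which Jun was chosen and were not tested.

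**Figure D3:**
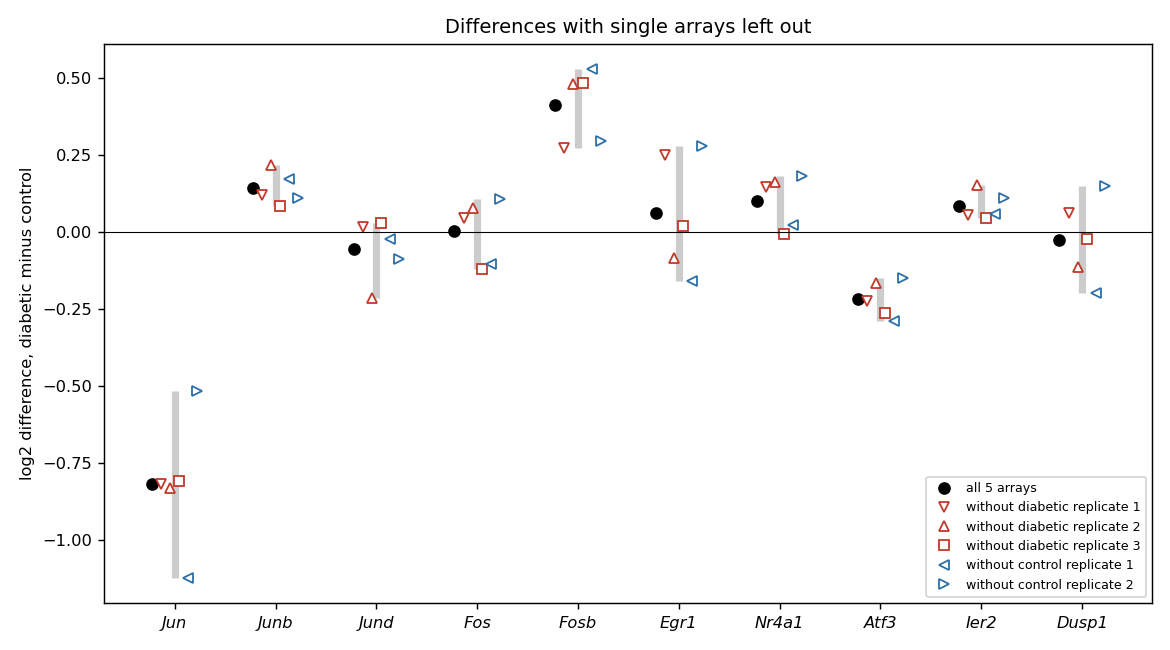
Log2 difference (diabetic minus control) of each gene with all 5 arrays (black) and with single diabetic (red) or control (blue) arrays left out; grey bars span these values. Jun lies between -1.12 and -0.52, Atf3 between -0.29 and -0.15 and Fosb between 0.27 and 0.53, whereas Jund, Fos, Egr1, Nr4a1 and Dusp1 lie on both sides of 0.

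The profile of Jun was then compared with those of the 8 other tested members. Likeness was measured as the root mean square distance between log2 levels over the 5 arrays, each gene centred on its own mean. On this measure a gene with the same level in every array would lie at 0.444 from Jun, and the distance also depends on the size of Jun's own change. The closest member was Atf3 at 0.338, and 304 of 10915 genes were closer. Dusp1 was next at 0.410, Fos at 0.446 and Jund at 0.457, and Junb was the farthest at 0.525. Fosb was not tested and has no distance. The 5 tested genes nearest to Jun were Itgb8 at 0.112, Col8a1 at 0.112, Scd1 at 0.136, Calml4 at 0.147 and Polh at 0.152. Itgb8, an integrin subunit gene, was at 12.57, 12.93 and 12.80 in diabetic and 13.28 and 13.84 in control pools. Col8a1, a basement membrane collagen gene, was at 10.38, 10.37 and 10.59 in diabetic and 11.13 and 11.64 in control pools. Both were low in all diabetic pools and highest in control replicate 2, as Jun was, which follows from how they were picked. Scd1 encodes a fatty acid desaturase, Calml4 a calmodulin-like protein and Polh a DNA polymerase that copies past damaged bases. Their differences were -0.67, -0.60 and -0.57.

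Most markers of the pigment epithelium, which lies behind the photoreceptors and serves them, ran in the same direction as Jun. Of 9 tested markers 8 were lower in diabetic pools, 6 of them with no overlap, against 8.15% of all tested genes. Trpm1, also a channel gene of bipolar cells, was higher by 0.68, with overlapping groups. The median difference of the markers was -1.14, and -0.69 without control replicate 2 or -0.58 without both muscle-rich arrays. Rpe65, the isomerase of the visual cycle, was at 11.26, 11.43 and 10.66 in diabetic and 12.17 and 13.31 in control pools. The summed log2 signal of the 10 markers was 16.46 to 16.95 in diabetic and 17.14 to 17.52 in control pools, with control replicate 2 again the highest. None of the 10 was at 0, although Best1, a chloride channel gene of that layer, was at 7.22 to 7.49, near the 6.91 that a signal of 0 would have. The part of pigment epithelium in the Jun difference was not tested. Other marker lists were mixed. Melanocyte markers varied widely within both groups. Their summed log2 signal was 14.43, 11.38 and 13.74 in diabetic and 12.19 and 14.16 in control pools. Of 3 tested melanocyte markers 1 was lower and 2 higher (median 0.01), with overlapping groups. Of 4 tested microglia and macrophage markers 3 were lower (median -0.25), with a summed log2 signal of 12.57 to 12.98 in diabetic and 12.93 to 13.23 in control pools. Without both muscle-rich arrays their median was 0.04. Of 4 tested fibroblast markers 2 were lower and 2 higher (median -0.30). Among them the collagen genes Col1a2, at -1.13, and Col6a1, at 0.30, had no overlap between the groups. The median of the 4 was 0.19 without control replicate 2, which had the highest summed signal of 14.19, against 13.38 to 13.92 in the other arrays. Retinal ganglion cell markers had 5 of 7 tested genes higher (median 0.13), 2 of them with no overlap, against 9.99% of all tested genes. Muller glia markers had 5 of 8 higher (median 0.02), with overlapping groups. The part of these cell types in the Jun difference was not tested.

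**Figure D4:**
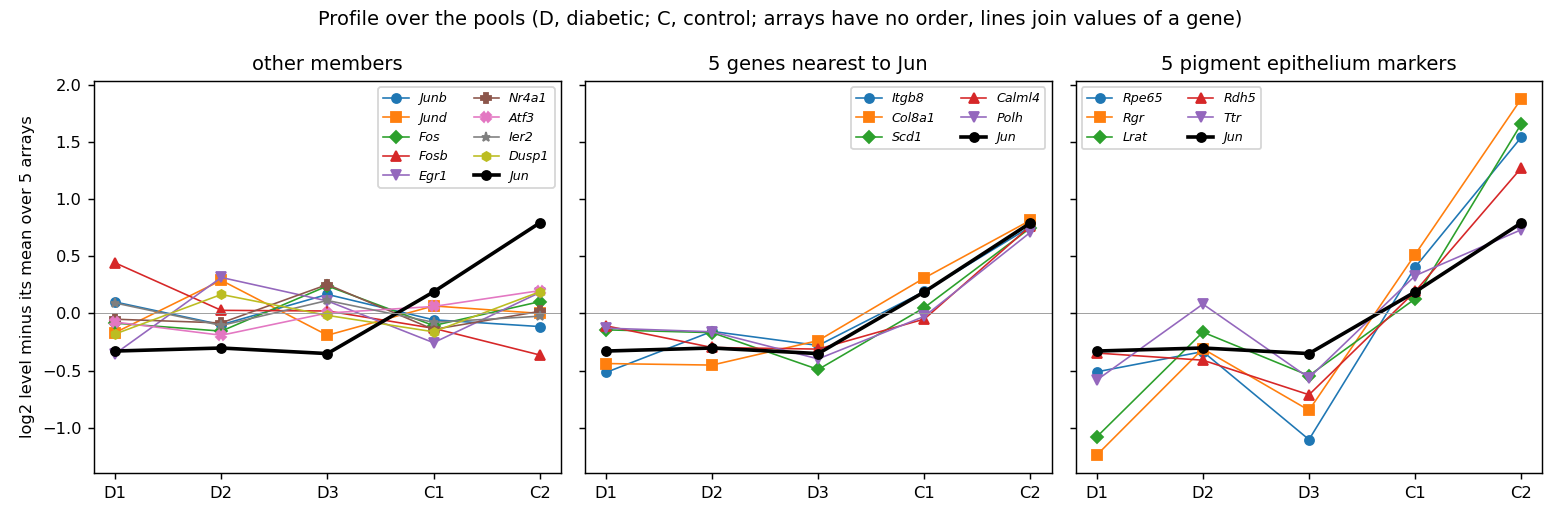
Log2 level minus the gene's mean over the 5 arrays (D, diabetic; C, control) for Jun (black) beside the other 9 genes, the 5 genes nearest to it, and 5 pigment epithelium markers that were picked after their values were seen. Jun, its nearest genes and these 5 markers have their highest points in control replicate 2. For the nearest genes this follows from how they were picked. Rrh, Trpm1, Rlbp1 and Best1 of the same marker list, which are not plotted, have theirs in other arrays. The other members stay within 0.5 log2 units of their means.

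Genes that act with or before Jun were followed in lists, and 0 genes of any of these lists passed the test. Of the AP-1 partners and relatives, 9 of 15 measured genes were tested, 7 lower and 2 higher, with a median of -0.05. With the arrays centred on their medians 5 were lower and 4 higher. Maf, a bZIP factor, differed by -0.24 and Atf7 by -0.21, both without overlap between the groups, although the groups of Atf7 overlapped after such centring. Atf2, the partner of Jun at the TGACATCA element, differed by -0.03 (95% interval -0.23 to 0.16). Fosl2 and Maff were below the filter and not tested. Maff was at 8.19, 7.44 and 7.62 in diabetic and 8.59 and 8.26 in control pools, a difference of -0.67 with no overlap. Fosl2 differed by 0.19 with overlapping groups.

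The kinases that phosphorylate and induce Jun had no common direction. Of 15 tested genes of the JNK, ERK and p38 cascades 7 were lower and 8 higher, with a median of 0.06 (5 lower and 10 higher after median centring). Groups did not overlap in 5 of them, 2 lower and 3 higher, or 33.3% against 18.1% of all tested genes. Map3k12 encodes the kinase DLK, which acts upstream of JNK in injured neurons. It was at 13.19, 13.42 and 13.35 in diabetic and 13.58 and 13.57 in control pools, a difference of -0.25 (SE 0.09). Map3k5, the stress kinase ASK1, was at 11.64, 11.86 and 11.66 in diabetic and 11.31 and 11.53 in control pools, a difference of 0.30 (SE 0.13). Of the 3 JNK genes, Mapk8 differed by -0.10, Mapk9 by 0.06 and Mapk10 by 0.11, and the 95% intervals of all 3 included 0. Rps6ka5, a kinase that acts on CREB and histones, differed by 0.15.

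Factors that drive immediate early promoters were also split. Of 12 tested serum response factor partners and CREB coactivators 5 were lower and 7 higher, with a median of 0.03 (4 and 8 after median centring). Srf itself differed by 0.20 (95% interval -0.11 to 0.51). Mef2c differed by -0.23 and Mef2a by 0.11, factors of 1 family with groups apart in opposite directions. Crtc1, a CREB coactivator, differed by -0.20, with no overlap between the groups, though they overlapped after median centring.

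Of 33 other immediate early genes measured 22 were tested, 13 lower and 9 higher, between -0.27 and 0.18, with a median of -0.04 (10 lower and 12 higher after median centring). The groups overlapped in all 22 under the deposited scaling. Nr4a2, a nuclear receptor related to Nr4a1, differed by -0.11 (95% interval -0.59 to 0.37) and Homer1, a synaptic scaffold gene, by -0.17 (95% interval -0.47 to 0.12). Egr3 and the synaptic gene Arc lay below the filter and were not tested. Egr3 ranged from 7.94 to 8.86 in diabetic and from 8.26 to 9.01 in control pools. Arc ranged from 7.27 to 7.56 in diabetic and from 7.22 to 7.71 in control pools. Of 8 further dual specificity phosphatase genes 3 were lower and 5 higher, with a median of 0.01 (2 and 6 after median centring).

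Genes known as AP-1 targets were mostly dim, and 4 of 14 measured were tested, 2 lower and 2 higher. Ccnd1, the cyclin D1 gene, differed by -0.16 (95% interval -0.46 to 0.13). Cd44, a hyaluronan receptor gene, was at 11.89, 11.90 and 11.99 in diabetic and 11.86 and 11.50 in control pools, a difference of 0.25 (95% interval -0.05 to 0.55) with the diabetic pools higher. Of 9 measured genes of neuronal injury and the Jun pathway 3 were tested, 2 lower and 1 higher (1 and 2 after median centring), with overlapping groups under the deposited scaling.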

How the data were processed

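The authors deposited a linear signal intensity for each probe set. Their summarization software is not given in the sources used here, which leaves the background of dim values unknown. All columns had a mean of 2500.01 without the lowest and highest 2% of values. Probe sets were named by platform annotation, updated by Entrez ID (GRCm38.p6). Groups came from the titles, and labels do not say whether pools were prepared separately. The 60% of genes highest in mean level over all arrays were tested (limma, lmFit and eBayes with a trend, 3 residual degrees of freedom, Benjamini-Hochberg adjustment). Array medians differed by 0.15, under the limit of 0.2 for keeping the deposited scaling.

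Members and lists were chosen with earlier results of these data known. Named genes were the members, a fixed set, up to 4 per list of largest difference with groups apart, and the 5 nearest to Jun. The fit was tested on simulated data. Alternatives covered pseudocount, scaling, filter, probe sets, variance model, weights, blocks and arrays left out. The number of arrays limits the precision. R 4.3.3, limma 3.58.1 and matplotlib 3.10.9 were used.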

Additional observations from a re-analysis of the deposited data

Results flagged for a closer look

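Control probe sets lay outside the gene comparison. In diabetic replicate 2 the beta-actin signal at the 3' end was 4.32 times that at the 5' end, above the 2.52 and 2.71 of the control arrays, while the same ratio for Gapdh was 0.901 against 0.822 and 0.811. Jund and Egr1 had their highest values in this array, and the part of RNA integrity in them was not tested.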

How the results depend on the processing

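Jun was lower in diabetic pools under all 17 alternatives to its fit, but not all of these could change its value. The filter and the variance model leave a difference as it is. The replicate block gives the same member differences as leaving out diabetic replicate 3. The Jun difference moved by more than the spread between replicates with control arrays left out (-1.12 to -0.52 over single arrays). It also did so without the 2 muscle-rich arrays, diabetic replicate 3 and control replicate 2 (-0.50). Jun's distance from the other members, diabetic minus control, differed by -0.50 without these 2 arrays. With single arrays left out it differed by -0.96 to -0.60. Members whose groups did not overlap numbered 5 with the arrays centred on their medians (Junb and Ier2 added), and 3 to 6 with single arrays left out (6 without diabetic replicate 2, 5 without control replicate 1). Over all tested genes the share that did not overlap was 36.2% without diabetic replicate 2 and 44.8% without control replicate 1. Fewer arrays overlap less often, so these counts are no result about the members. Median centring keeps all 5 arrays, and 17.6% of all tested genes did not overlap, 4.02% lower and 13.5% higher. The members apart were then 2 lower, among them Jun, whose difference was known, and 3 higher, and this count was not tested. The median of the members lay between -0.06 and 0.11. Of 153 values of the other members, settings that could not change them included, 152 moved by less than the spread between replicates. The exception was Fosb with a pseudocount at the median of all values, at 0.18.

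Genes called over the array numbered 0 to 1 with single arrays left out (Prss22 without diabetic replicate 2, Spc25 without diabetic replicate 3). There were 2 without the 2 muscle-rich arrays (Npl and Spc25) and 2 with a replicate block (Rgr and Spc25), all named after their values were seen; 0 were members. The labels do not say that same-numbered arrays are paired. Deviations of same-numbered arrays from their group means correlated at 0.13 and -0.14. The deviations of 2 controls mirror each other, so these values are not separate checks and do not decide on pairing. With the block Jun was at -0.81, the same value as without diabetic replicate 3. With 1 control array left, a fit assumes that it varies like the diabetic arrays.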
